A study of Arabidopsis thaliana with 8 samples.

Results

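A set of 10 genes (of 33602 in the count tables) that make the defence signals salicylic acid and N-hydroxypipecolic acid, or that switch this synthesis on, were followed through RNA-seq libraries of *Arabidopsis thaliana* seedlings. They were taken by locus identifier: *ICS1* (AT1G74710), *EDS5* (AT4G39030), *PBS3* (AT5G13320), *CBP60g* (AT5G26920), *SARD1* (AT1G73805), *EDS1* (AT3G48090), *PAD4* (AT3G52430), *ALD1* (AT2G13810), *SARD4* (AT5G52810) and *FMO1* (AT1G19250). The list was chosen with earlier results of these data known. All 10 were present in the tables. Whole seedlings, 6 days old and grown in short days of 8 hours light and 16 hours dark, stayed at 23°C or spent 2 hours at 27°C. The wild type was Col-0, and the mutant was *pwr-2*, a single T-DNA insertion allele in the Col-0 background of *POWERDRESS* (*PWR*, AT3G52250), which encodes a SANT-domain protein. Each of the 4 groups, Col-0 and *pwr-2* at either temperature, had 2 libraries, each from a pool of about 100 seedlings. The comparisons ask how the loss of PWR alters expression at each temperature, and whether it alters the early response to warmth.

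In response to pathogens, most salicylic acid is made from chorismate in the plastid. ICS1 forms isochorismate, EDS5 is the transporter that carries it out of the plastid, and PBS3 couples it to glutamate, giving a conjugate that breaks down to salicylic acid. N-hydroxypipecolic acid, the mobile signal of systemic acquired resistance, is made from lysine by ALD1, an aminotransferase, SARD4, a reductase, and FMO1, a flavin monooxygenase. CBP60g and SARD1 are related transcription factors that switch on genes of both routes, and EDS1 and PAD4 are lipase-like proteins that act together upstream of them.

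Total counts ranged from 7379650 to 15733741 per library. *PWR* itself was at 56.6 and 75.5 CPM (the count scaled to a library of 1000000 counts, with TMM library sizes) at 23°C and 43.0 and 82.0 at 27°C in Col-0, and at 15.4 and 11.4 at 23°C and 11.9 and 20.2 at 27°C in the mutant, so every *pwr-2* library lay below every Col-0 library. Markers of leaf (4 genes, summed level 28150 to 52620 CPM) were above 0 in all libraries, and those of root (4 genes, 1772 to 3429 CPM) were above 0 except for 1 gene in the second *pwr-2* library at 23°C. Chloroplast and mitochondrial genes took 0.0374% to 6.77% of the counts. Markers of seed (2 genes) summed to 1.3 to 222 CPM. The second *pwr-2* library at 23°C differed from the first in several markers. Its seed markers summed to 1.3 CPM beside 164, organelle genes took 0.0374% beside 6.49%, and the heat-shock gene *HSP101* was at 120 CPM beside 5.93. The part of these differences in the values of the 10 genes was not tested. The Col-0 libraries at 23°C stood apart from each other for the 10 genes. The first replicate, the shallowest of the 8, had 8 of them above their own mean, and the second had 6 of them at their lowest level anywhere. Which of these is unusual cannot be told. The root markers did not differ in 1 direction between these libraries. *TIP2;3* was at 1.46 CPM in the first and 90.8 in the second, while *NRT2.1* was at 22.2 and 0.062. *COBL9* (3.46 and 4.71) and *PYK10* (2599 and 3333) differed less. The part of these markers in the values of the 10 genes was not tested. Results that rest on this group are therefore also given without each of these libraries. In a count of RNA from whole seedlings, fewer cells of a type and less RNA per cell cannot be told apart.

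Sequence immediately upstream of the genes was read from the TAIR10.1 genome (300 bases before the annotated start, 5′ to 3′ on the strand of the gene, ending at the last base before the start). Letter patterns were searched on both strands: TTGAC (the W-box core, bound by WRKY factors), TGACG (bound by TGA factors), CGCG (bound by CAMTA factors), CACGTG (the G-box) and GAAATTT (a pattern in the *ICS1* promoter bound by CBP60g and SARD1). The sequences shown are those of *EDS5* and *PBS3*, the members with a called difference between genotypes, of *FMO1*, the member nearest to that call, of *ICS1*, the first enzyme, and of *SARD1*, which held the most matches. Capitals mark the matches.
*EDS5* (chr4:18185137-18185436, plus strand): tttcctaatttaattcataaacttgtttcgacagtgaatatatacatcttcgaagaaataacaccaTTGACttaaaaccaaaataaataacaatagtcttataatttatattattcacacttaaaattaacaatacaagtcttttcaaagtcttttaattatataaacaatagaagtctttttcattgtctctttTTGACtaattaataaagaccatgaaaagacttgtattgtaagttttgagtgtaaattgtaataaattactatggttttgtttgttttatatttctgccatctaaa
*PBS3* (chr5:4267156-4267455, plus strand): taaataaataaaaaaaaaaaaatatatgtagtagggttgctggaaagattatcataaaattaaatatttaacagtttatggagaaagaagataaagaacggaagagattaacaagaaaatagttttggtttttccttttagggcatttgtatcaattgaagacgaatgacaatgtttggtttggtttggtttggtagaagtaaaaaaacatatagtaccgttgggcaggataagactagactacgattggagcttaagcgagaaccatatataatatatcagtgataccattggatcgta
*FMO1* (chr1:6653196-6653495, minus strand): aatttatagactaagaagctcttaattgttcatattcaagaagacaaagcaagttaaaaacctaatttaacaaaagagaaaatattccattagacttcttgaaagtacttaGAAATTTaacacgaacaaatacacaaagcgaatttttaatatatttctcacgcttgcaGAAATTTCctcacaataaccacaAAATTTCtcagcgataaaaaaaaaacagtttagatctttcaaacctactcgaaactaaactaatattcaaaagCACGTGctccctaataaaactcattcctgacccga
*ICS1* (chr1:28069995-28070294, plus strand): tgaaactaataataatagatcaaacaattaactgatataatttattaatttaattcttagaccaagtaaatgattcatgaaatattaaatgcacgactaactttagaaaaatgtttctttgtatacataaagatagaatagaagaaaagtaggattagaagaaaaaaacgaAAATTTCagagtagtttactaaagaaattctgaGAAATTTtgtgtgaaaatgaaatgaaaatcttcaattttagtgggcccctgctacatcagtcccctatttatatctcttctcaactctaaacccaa
*SARD1* (chr1:27749249-27749548, minus strand): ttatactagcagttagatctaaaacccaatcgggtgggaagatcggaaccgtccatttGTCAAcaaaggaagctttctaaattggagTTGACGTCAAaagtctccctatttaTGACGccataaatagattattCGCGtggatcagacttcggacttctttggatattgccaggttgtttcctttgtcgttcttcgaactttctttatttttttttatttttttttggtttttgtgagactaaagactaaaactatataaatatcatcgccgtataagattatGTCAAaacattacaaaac

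*EDS5* held TTGAC 2 times, while none of the 5 patterns was found in the windows of *PBS3*, *CBP60g* or *PAD4*. *SARD1* held TTGAC 4 times, TGACG 3 times and CGCG 1 time, and TTGAC and TGACG overlap within its longest run of capitals. *ICS1* held GAAATTT 2 times. *FMO1* held GAAATTT 4 times, 2 of them as the overlapping forward and reverse matches of 1 palindrome, and CACGTG 1 time. Over all 10 windows, TTGAC was in 4 (50.4% of 27437 windows of the same length over protein-coding genes), TGACG and CGCG each in 2 (21.3% and 11.8%), CACGTG in 1 (7.09%) and GAAATTT in 3 (*ICS1*, *ALD1* and *FMO1*; 14.9%). The windows of *EDS1* and *SARD4* contain part of a neighbouring gene. Since the window of *PBS3* held none of the 5 patterns, these windows cannot show a pattern shared by the 2 members with a called difference.

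Levels were low and differed widely between the 10 genes. On the scale of CPM per kilobase of the deposited gene length, averaged over the 8 libraries, the order of the levels was *SARD4* (12.9), *EDS1* (8.34), *ICS1* (7.98), *PAD4* (6.41), *EDS5* (5.61), *CBP60g* (2.80), *PBS3* (1.98), *FMO1* (1.22), *ALD1* (0.894) and *SARD1* (0.786). The ranges of the 8 libraries overlapped for all 9 pairs of neighbours in this order. These ranges include the differences between groups, and neighbours were not compared within libraries, so their order was not tested. The range over the 8 libraries, as the highest over the lowest CPM, was 87.4-fold for *PBS3*, 23.3-fold for *FMO1* and 14.3-fold for *SARD1*, and 6.89- to 7.91-fold for *EDS5*, *CBP60g*, *SARD4* and *ALD1*. *ICS1* (2.73-fold), *PAD4* (1.71-fold) and *EDS1* (1.65-fold) varied least. The lipase-like regulators thus kept a nearly even level in these libraries, while the transcription factor genes and most enzyme genes did not. The widest ranges rest on few counts, with lows of 2 for *PBS3*, 4 for *FMO1* and 5 for *SARD1*, beside 81 for *PAD4* and 128 for *EDS1*. *CBP60g* and *SARD4* had their highest level in the first Col-0 library at 23°C.

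**Figure D1:**
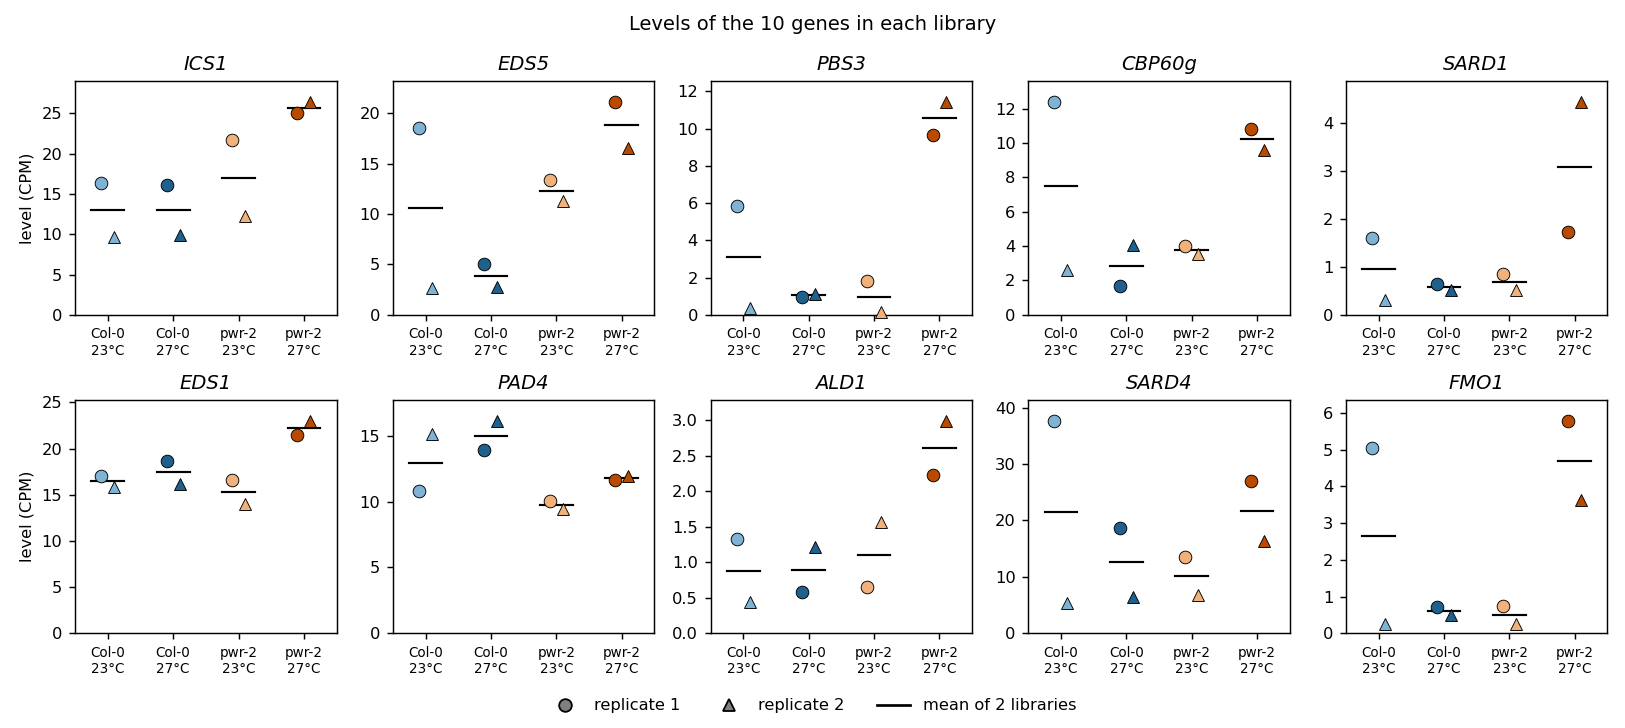
Level of each of the 10 genes (y axis, CPM, from 0) in the 8 libraries, by group (x axis); circles are replicate 1, triangles replicate 2 and bars the mean of both. *PBS3* reached 9.67 and 11.4 CPM in *pwr-2* at 27°C and at most 5.86 elsewhere, and in Col-0 at 23°C the 2 replicates lie far apart for most genes.

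At 27°C, 9 of the 10 genes had a higher level in *pwr-2* than in Col-0 in both replicate pairs, and 2 of them passed the test. *PBS3* rose 9.95-fold and *EDS5* rose 4.98-fold (edgeR quasi-likelihood test with the replicate number as a block, Benjamini-Hochberg adjusted p under 0.05 over 19324 genes). No member fell. Of all genes tested, 1.05% were called, 0.828% as higher and 0.217% as lower. The median log2 fold change over the 10 genes was 1.75, beside -0.01 over all genes tested, and it was over 1 for 7 of the 10, beside 8.62% of all genes.

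Among the salicylic acid genes, *PBS3*, which encodes the enzyme that joins glutamate to isochorismate, had the highest fold change. Its level in the 2 replicates was 5.86 and 0.372 CPM at 23°C and 0.941 and 1.14 at 27°C in Col-0, and at 1.83 and 0.131 at 23°C and 9.67 and 11.4 at 27°C in the mutant. Both *pwr-2* libraries at 27°C were above the other 6 (2.98% of 19936 genes have this order), and at 27°C the genotypes did not overlap. The log2 fold change between genotypes at 27°C was 3.31 (SE 0.400, edgeR adjusted p = 0.0325), with 3.16 and 3.15 in the 2 replicate pairs. The low libraries hold few reads, with 2 counts in the lowest and 126 in the highest.

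*EDS5*, the transporter gene, was at 18.5 and 2.67 CPM at 23°C and 5.0 and 2.73 at 27°C in Col-0, and at 13.4 and 11.3 at 23°C and 21.1 and 16.6 at 27°C in the mutant. At 27°C the genotypes did not overlap, but the first Col-0 library at 23°C lay between the *pwr-2* libraries at 27°C. The log2 fold change at 27°C was 2.32 (SE 0.323, edgeR adjusted p = 0.0381), with 2.04 and 2.53 in the pairs. *EDS5* shares 213 bases with a gene on the opposite strand, AT4G39040, whose counts (225 to 1272) exceed those of *EDS5* (43 to 255), and the strand setting of the counting is not given in the sources used here, so reads from the shared bases cannot be told apart. AT4G39040 had 579 and 414 counts at 27°C in *pwr-2*, beside 1087 and 1272 in Col-0, an order opposite to that of *EDS5*.

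*ICS1*, the first enzyme of the route, was at 16.4 and 9.67 CPM at 23°C and 16.1 and 9.91 at 27°C in Col-0, and at 21.7 and 12.2 at 23°C and 25.0 and 26.4 at 27°C in the mutant. Its *pwr-2* libraries at 27°C were the 2 highest of the 8. The log2 fold change at 27°C was 1.0 (SE 0.304, edgeR adjusted p = 0.170), which did not pass the test.

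The calls for *PBS3* and *EDS5* depended on the fit. Without the replicate block, the adjusted p was 0.153 for *PBS3* and 0.171 for *EDS5*, and it was 0.357 and 0.354 with all 8 libraries in one fit and 0.0683 and 0.0746 with upper-quartile normalization (edgeR); the log2 fold changes stayed between 3.31 and 3.39 for *PBS3* and between 2.27 and 2.37 for *EDS5*. With all groups in one fit, leaving out 1 library at a time gave 1.73 (without the second mutant library at 27°C) to 4.86 (without the second Col-0 library at 27°C) for *PBS3*, and 1.87 to 2.80 for *EDS5*. In that fit the unpaired library is adjusted by the replicate effect of the other groups. For *PBS3* the replicates differed 15.7- and 14-fold at 23°C but 1.22- and 1.18-fold at 27°C (Col-0, then *pwr-2*). Its range therefore does not measure the spread between the 27°C libraries, whose pairs gave 3.16 and 3.15. With 2 replicates a group, 2 genotypes and the block, 1 residual degree of freedom remains per gene, and the p-values measure the spread between these libraries only.

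Of the pipecolate genes, *FMO1*, whose product makes the final, mobile signal, had the highest fold change between genotypes at 27°C. It was at 5.06 and 0.248 CPM at 23°C and 0.724 and 0.508 at 27°C in Col-0, and at 0.754 and 0.261 at 23°C and 5.79 and 3.62 at 27°C in the mutant. The groups did not overlap at 27°C, yet the first Col-0 library at 23°C again reached the level of the *pwr-2* libraries at 27°C. The log2 fold change of 2.89 (SE 0.506) did not pass the edgeR test (adjusted p = 0.0626), although DESeq2 with the same block called it (adjusted p = 0.0203).

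*ALD1*, whose product acts first in the route, was at 1.33 and 0.434 CPM at 23°C and 0.579 and 1.21 at 27°C in Col-0, and at 0.646 and 1.57 at 23°C and 2.23 and 2.99 at 27°C in the mutant. Its 2 *pwr-2* libraries at 27°C were also the highest of the 8. The log2 fold change at 27°C was 1.57 (SE 0.549, edgeR adjusted p = 0.221).

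*SARD4*, the reductase gene, was at 37.7 and 5.45 CPM at 23°C and 18.7 and 6.48 at 27°C in Col-0, and at 13.5 and 6.85 at 23°C and 27.0 and 16.3 at 27°C in the mutant. It was the only member whose genotypes overlapped at 27°C, and replicate 1 was above replicate 2 in all 4 groups, by 1.66-fold in *pwr-2* at 27°C up to 6.91-fold in Col-0 at 23°C. Within both pairs it was higher in *pwr-2* (0.53 and 1.31), with a fitted log2 fold change of 0.91 (SE 0.309, edgeR adjusted p = 0.212). It overlaps AT5G52800 on the same strand by 89 bases, but that gene had only 11 to 19 counts a library.

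The transcription factor gene *CBP60g* was at 12.4 and 2.60 CPM at 23°C and 1.67 and 4.07 at 27°C in Col-0, and at 3.99 and 3.52 at 23°C and 10.8 and 9.60 at 27°C in the mutant. Its single highest library was the first Col-0 replicate at 23°C. At 27°C the genotypes did not overlap, with a log2 fold change of 1.92 (SE 0.464, edgeR adjusted p = 0.110; DESeq2 called it).

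*SARD1*, the related factor, was the lowest of the 10 per length, at 1.60 and 0.310 CPM at 23°C and 0.652 and 0.508 at 27°C in Col-0, and at 0.862 and 0.522 at 23°C and 1.74 and 4.44 at 27°C in the mutant. The 2 *pwr-2* libraries at 27°C were the highest but differed 2.56-fold from each other. The log2 fold change was 2.27 (SE 0.658, edgeR adjusted p = 0.159), from 8 to 49 counts in the 4 libraries compared. Of its 4459 bases, 640 are shared with *GIP2* on the opposite strand, which had 19 to 68 counts.

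The upstream regulators had the smallest fold changes of the 10. *EDS1* was at 17.0 and 15.9 CPM at 23°C and 18.7 and 16.1 at 27°C in Col-0, and at 16.6 and 14.0 at 23°C and 21.4 and 23.0 at 27°C in the mutant, with a log2 fold change at 27°C of 0.34 (SE 0.263, edgeR adjusted p = 0.601). Col-0 carries a neighbouring, nearly identical copy, AT3G48080 (11 to 53 counts, beside 128 to 259 for *EDS1*), and how reads matching both were counted is not given in the sources used here. *PAD4* was at 10.8 and 15.1 CPM at 23°C and 13.9 and 16.1 at 27°C in Col-0, and at 10.02 and 9.46 at 23°C and 11.7 and 12.0 at 27°C in the mutant. It was the only member lower in both *pwr-2* libraries at 27°C, with a log2 fold change of -0.36 (SE 0.276, edgeR adjusted p = 0.604).

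Counted together at 27°C, 9 of the 10 genes had a higher level in *pwr-2* within both replicate pairs (31.7% of all genes tested were), and 8 had both *pwr-2* libraries above both Col-0 libraries (20% of all genes), while 1, *PAD4*, had both below (20.1%). At an unadjusted p under 0.05, 8 of the 10 passed (16.8% of all genes). DESeq2 called 4 of the 10, *PBS3*, *EDS5*, *CBP60g* and *FMO1*, all higher (4.82% of all genes called, 2.99% as higher). Other measures moved with this comparison. Heat-shock markers (4 genes) summed at 27°C to 809 and 660 CPM in *pwr-2* beside 494 and 269 in Col-0, and organelle genes took 3.30% and 2.12% beside 1.28% and 0.397%. The heat-shock sum was mostly *HSP70-4* (753 and 498 CPM in *pwr-2*). *HSP17.6II* overlapped between genotypes (5.04 and 19.9 CPM beside 12.3 and 4.32), while the other heat-shock markers were higher in *pwr-2* without overlap. Markers of leaf summed to 43650 and 28150 CPM beside 47850 and 30850, and markers of root to 2364 and 1772 beside 2082 and 2891, a sum made up almost wholly of *PYK10*. The other root markers were lower in *pwr-2* or too low to test: *TIP2;3* was at 3.97 and 4.26 CPM beside 4.42 and 80.1 (log2 fold change -2.31, SE 0.973, edgeR adjusted p = 0.304), *COBL9* at 2.81 and 0.906 beside 3.91 and 4.70 (-1.35, SE 0.593, edgeR adjusted p = 0.325), and *NRT2.1* at 3 counts or fewer in 3 of these 4 libraries. *TIP2;3* and *COBL9* did not overlap between genotypes. The part of these markers in the result was not tested.

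**Figure D2:**
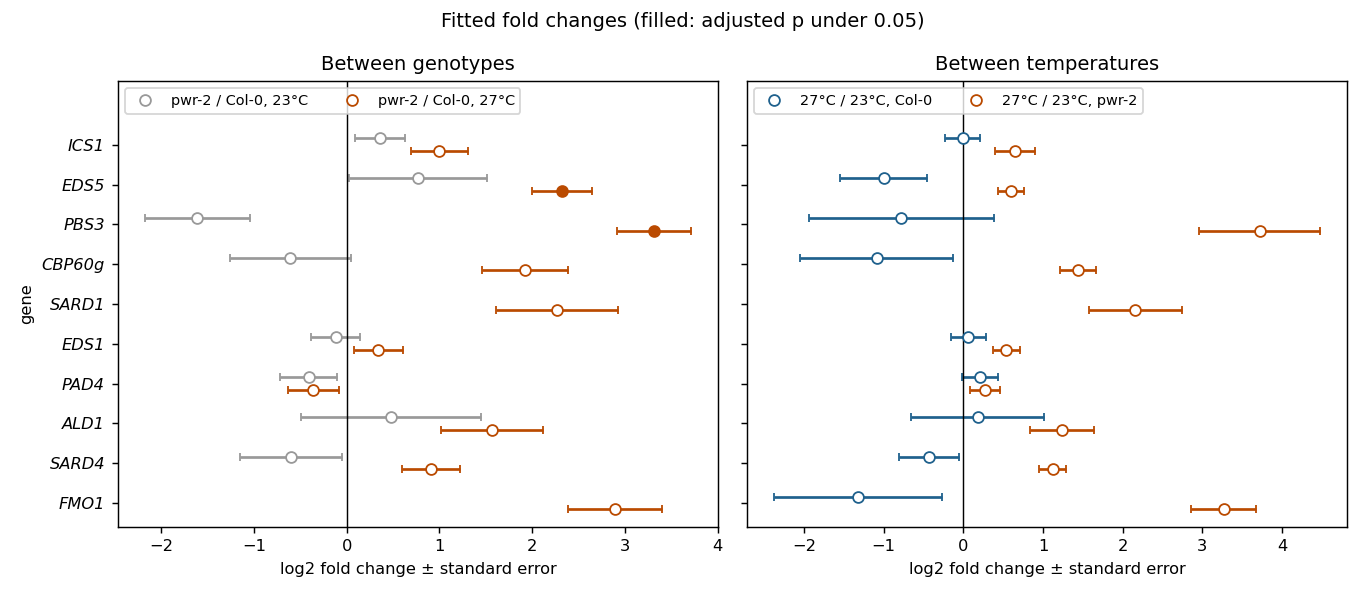
Fitted log2 fold changes (x axis, ± standard error) of the 10 genes (y axis) between genotypes at each temperature (left) and between temperatures in each genotype (right); filled points passed an adjusted p under 0.05, and absent points were not tested. Only *PBS3* (3.31) and *EDS5* (2.32) at 27°C are filled, and all 10 points for warmth in *pwr-2* lie above 0.

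At 23°C the genotypes were not told apart for these genes. None of the 8 members tested was called (edgeR, 0% of 19170 genes called; at an unadjusted p under 0.05, 1 member and 868 genes, 4.53%; DESeq2 called 51 genes, 0.266%, and none of the members). *SARD1* and *FMO1* had too few counts to be tested. The test at this temperature did not call *PWR* either (log2 fold change -2.32, SE 0.347, edgeR adjusted p = 0.976), so a difference of that size could be missed.

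The 2 replicate pairs gave unlike answers at 23°C. For 6 of the 10 genes the pairs had opposite signs, among them *EDS5* (-0.46 and 2.02 on the log2 scale), *CBP60g* (-1.60 and 0.42), *SARD4* (-1.47 and 0.32) and *ALD1* (-0.89 and 1.54). The first pair contains the high Col-0 library. *PBS3* was lower in *pwr-2* in both pairs (-1.60 and -0.88; fitted -1.61, SE 0.564, edgeR adjusted p = 0.976), from 44 and 6 counts in Col-0 and 17 and 2 in *pwr-2*. Single libraries were left out in a fit of all groups, with 1 replicate effect common to them. Without the first Col-0 replicate at 23°C, the fitted differences of *PBS3*, *CBP60g* and *SARD4* changed sign, to 0.87, 0.69 and 0.30. Without the second replicate those of *EDS5* and *ALD1* did, to -0.36 and -0.78. The 0.87 of *PBS3* is opposite to its remaining pair (-0.88). It rests in part on the unpaired *pwr-2* library and on the replicate effect of other groups. The sign for *PBS3* thus depended on the model, and no direction can be given for these 5 genes at 23°C.

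In *pwr-2*, all 10 genes had a higher level after 2 hours of warmth in these libraries, but no single difference passed the test. Both 27°C libraries were above both 23°C libraries for all 10 (17.5% of all genes), and the 2 pairs were both above 0 for all 10 (33.6%). The median log2 fold change was 1.18, beside 0.01 over all genes tested, and 6 of the 10 were over 1 (5.35%). None was past an adjusted p under 0.05 (edgeR, 0.42% of 19050 genes called, 0.367% as higher), while 9 were at an unadjusted p under 0.05 (18.1%). DESeq2 called *FMO1* and *SARD4*, both higher (3.39% of all genes, 2.39% as higher).

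The values nearest the threshold were those of the pipecolate genes *FMO1* and *SARD4* and of the regulator *CBP60g*. *FMO1* had a log2 fold change of 3.27 (SE 0.406, edgeR adjusted p = 0.0527). *SARD4* had one of 1.12 (SE 0.171, adjusted p = 0.0619 by edgeR) and *CBP60g* one of 1.44 (SE 0.223, adjusted p = 0.0628 by edgeR). *PBS3* had the highest fitted value, 3.72 (SE 0.759, edgeR adjusted p = 0.0985), but its pairs differed, at 2.30 and 5.32, since the second *pwr-2* library at 23°C held 2 counts. The remaining 6 ranged from 0.27 for *PAD4* to 2.16 for *SARD1*, with adjusted p from 0.150 to 0.507 (edgeR). The number called moved with the filter on low counts, with 4 members called without a filter, 2 when every library had to reach 10 counts, and 3 when organelle genes were left out before scaling. These comparisons use the same *pwr-2* libraries at 27°C as the comparison of genotypes above, and the Col-0 comparisons below share the 23°C libraries, so the counts are not independent of each other. Between temperatures in *pwr-2*, heat-shock markers summed to 94.5 and 459 CPM at 23°C and 809 and 660 at 27°C. The sum was mostly *HSP70-4* (84.5 and 290 CPM, then 753 and 498), and *HSP101* was also higher at 27°C in both pairs. *HSP17.6II* (0.323 and 36.6, then 5.04 and 19.9) and *HSP18.2* (3.77 and 12.9, then 4.96 and 4.62) were lower at 27°C in the second pair. Seed markers summed to 164 and 1.3 CPM at 23°C and 58.1 and 9.51 at 27°C. The root marker *TIP2;3* fell, from 15.1 and 21.7 CPM to 3.97 and 4.26 (log2 fold change -2.14, SE 0.212, edgeR adjusted p = 0.0451). *COBL9*, another root marker, was at 7.65 and 3.07 CPM at 23°C and 2.81 and 0.906 at 27°C (-1.57, SE 0.295, edgeR adjusted p = 0.0861), without overlap, while *PYK10* was at 2451 and 2220 and then 2357 and 1766. The part of these markers in the members' values was not tested.

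In Col-0 the same shift gave no common direction. None of the 9 members tested was called (edgeR, 0% of 19386 genes; at an unadjusted p under 0.05, 0 members and 756 genes, 3.9%; DESeq2 called 37 genes, 0.191%, and none of the members), and *SARD1* was not tested. For 8 of the 10 genes the replicate pairs had opposite signs, and the median over the 10 was -1.06 in the first pair and 0.38 in the second. *PBS3* gave -2.45 and 1.3 on the log2 scale, *CBP60g* -2.78 and 0.61, and *FMO1* -2.56 and 0.71. *EDS1* (0.13 and 0.02) and *PAD4* (0.36 and 0.09) were the only members above 0 in both pairs (27.6% of all genes were), and they were also the 2 with the least variable levels. *EDS5*, *PBS3*, *CBP60g*, *SARD4* and *FMO1* had fitted values below 0. In a fit of all groups without the first Col-0 replicate at 23°C they became 0.25, 1.22, 0.23, 0.49 and 0.84.

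**Figure D3:**
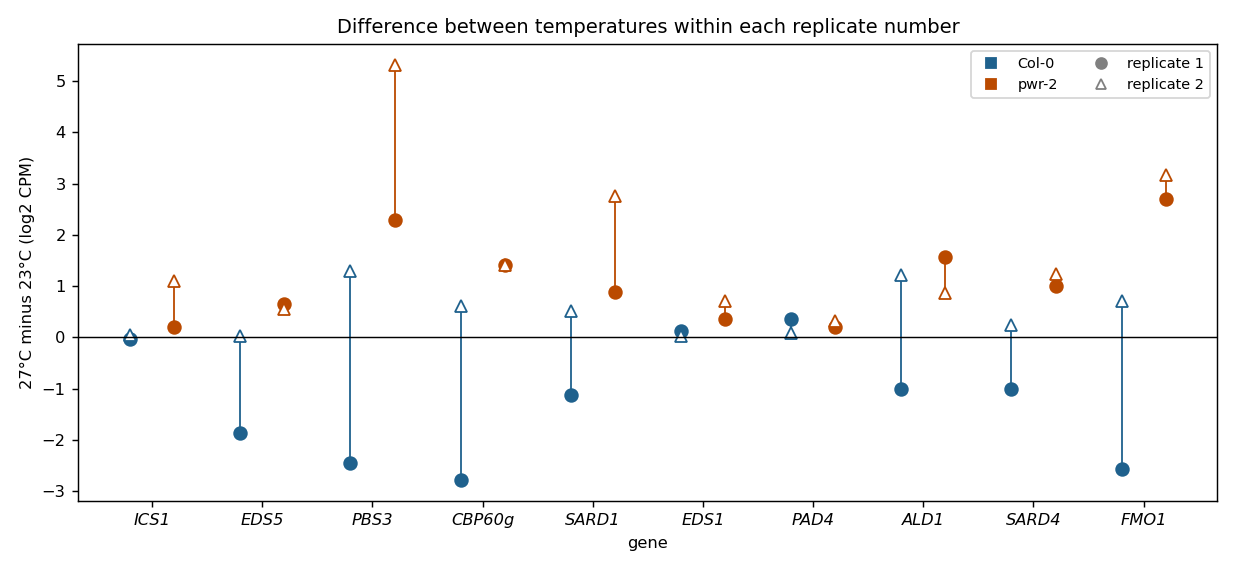
Difference between 27°C and 23°C within each replicate number (y axis, log2 CPM) for the 10 genes (x axis); filled circles are replicate 1, open triangles replicate 2, blue Col-0 and orange *pwr-2*. All 20 points of *pwr-2* are above 0, while the 2 Col-0 points of *PBS3* are at -2.45 and 1.3.

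Whether the response to warmth differed between genotypes was tested as the interaction on all 8 libraries. The fit held 1 replicate effect common to both genotypes. Replicate differences were shared more within a genotype (r 0.656 and 0.613) than between genotypes (0.261 to 0.334). A replicate effect for each genotype was not fitted, so the lack of calls also rests on this model. None of the 10 genes and none of 19936 genes passed (edgeR, 0% called; lowest adjusted p 0.948 among the members and 0.926 among all genes; at an unadjusted p under 0.05, 2 members and 915 genes, 4.59%; DESeq2 called 25 genes, 0.125%, and no member). The fitted interaction was above 0 for all 10, with a median of 1.73 on the log2 scale beside -0.01 over all genes, and it was highest for *PBS3* (4.96, SE 1.67, edgeR adjusted p = 0.948) and *FMO1* (4.88, SE 1.37, edgeR adjusted p = 0.948). For 8 of the 10 it was above 0 in both pairs, and *PAD4* and *ALD1* were the exceptions. The difference between the genotypes in their response to warmth was thus not shown for these genes. The result for *FMO1* depended on 1 library: without the second Col-0 replicate at 23°C it was called (5.93, edgeR adjusted p = 0.0433), together with 223 genes in all, and without any other library no member was. Col-0 at 23°C is then 1 library, the first replicate, and is assumed to vary like the other groups.

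**Figure D4:**
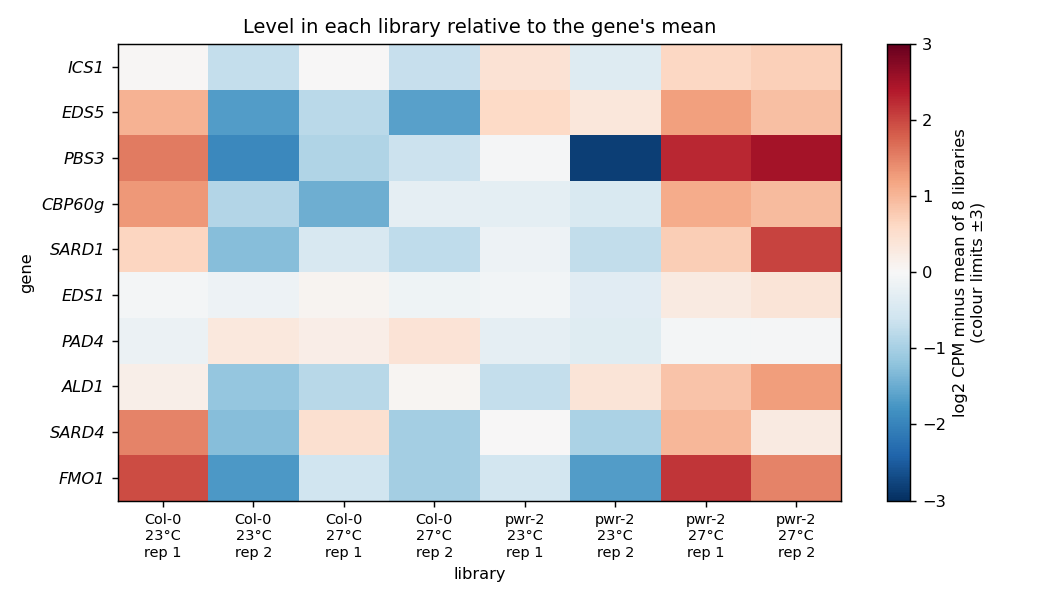
Level of the 10 genes (rows) in the 8 libraries (columns) as log2 CPM minus the mean of the gene over all libraries, in colour from -3 (blue) to 3 (red). The *pwr-2* libraries at 27°C (mean over the genes 1.02 and 1.05) and the first Col-0 library at 23°C (0.80) are red for most genes, the second Col-0 library at 23°C (-1.05) is blue, and *EDS1* and *PAD4* are pale throughout.

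Averaged over the 10 genes, the level relative to each gene's own mean was 0.80 and -1.05 on the log2 scale at 23°C and -0.43 and -0.57 at 27°C in Col-0, and -0.11 and -0.70 at 23°C and 1.02 and 1.05 at 27°C in the mutant. The 2 *pwr-2* libraries at 27°C were alike, and the 2 Col-0 libraries at 23°C spanned nearly the whole range. The 5 nuclear genes with the profile nearest to this mean, by the root mean square difference over the 8 libraries among 19767 genes, were *RBOHD* (0.24), an NADPH oxidase gene, *NRAMP4* (0.25), a vacuolar metal transporter gene, *SULTR3;4* (0.27), AT1G66880 (0.27) and *PPDK* (0.27), which encodes pyruvate, phosphate dikinase. The 10 members themselves differed from this mean by 0.38 (*SARD1*) to 1.11 (*PBS3*), more than these 5 genes did, so the mean is not the profile of any 1 member. The likeness is a description over libraries that share genotype, temperature and replicate number.

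Other genes of salicylic acid biology were read from the same fits. Of 15 further genes of synthesis and its control, none was called in any of the 4 pair comparisons (edgeR). Over all genes, 1.05% were called between genotypes at 27°C and 0% at 23°C. For warmth, 0% were called in Col-0 and 0.42% in *pwr-2*. At such shares, 0 calls in a list this short sets it apart neither from all genes nor from the members. At 27°C they ranged from -0.65 for *CBP60a*, a relative of *CBP60g* that limits immunity, to 3.27 for *ICS2*, the second isochorismate synthase gene (SE 0.547, edgeR adjusted p = 0.0569), with a median of 0.12. *ICS2* was at 136 and 7.62 CPM at 23°C and 24.8 and 2.41 at 27°C in Col-0, and at 80.4 and 42.3 at 23°C and 121 and 52.7 at 27°C in the mutant, so its replicates differed up to 17.9-fold and its genotypes did not overlap at 27°C. None of the 5 tested genes of salicylic acid turnover was called (of 6, *BSMT1* being at 0 in every library), nor was any of the 4 perception genes. At 27°C the turnover genes ranged from -0.48 for *UGT74F2*, a salicylic acid glucosyltransferase, to 1.22 for *S3H*, a salicylic acid hydroxylase, and the perception genes from -0.32 for *NPR4*, a receptor, to 1.47 for *NIMIN1*, a partner of NPR1.

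Among genes that salicylic acid is known to induce, 4 of 5 were tested at 27°C, with a median log2 fold change of 2.73. Of these 1, the glucanase gene *PR2*, rose (1.05% of all genes were called, 0.828% as higher). It was at 0.932 and 0 CPM at 23°C and 0.0724 and 0 at 27°C in Col-0, and at 0.646 and 0 at 23°C and 9.59 and 7.97 at 27°C in the mutant. Against a floor of 3 counts in each library, its level at 27°C in *pwr-2* was at least 43.1-fold higher than in Col-0 (edgeR adjusted p = 0.0315). As for *PBS3* and *EDS5*, this call was lost without the replicate block, with all 8 libraries in one fit and with upper-quartile normalization, where no gene was called. *PR5*, a thaumatin-like protein gene, had the smallest of the 4 log2 fold changes (1.3, SE 0.690, edgeR adjusted p = 0.424), and *PR1* was too low to test.

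In *pwr-2*, 2 of the 4 tested genes that salicylic acid induces rose with warmth (0.42% of all genes were called, 0.367% as higher). Both calls were lost without the replicate block and with all 8 libraries in one fit, where no gene was called. *WRKY70*, a transcription factor gene, was at 4.96 and 4.31 CPM at 23°C and 22.2 and 22.3 at 27°C (log2 fold change 2.27, SE 0.187, edgeR adjusted p = 0.0384), and in Col-0 it was at 14.4 and 0.744 at 23°C and 7.46 and 2.86 at 27°C. *GRX480*, a glutaredoxin gene, was at 2.48 and 3.72 CPM at 23°C and 13.0 and 15.4 at 27°C in *pwr-2* (2.19, SE 0.225, edgeR adjusted p = 0.0451), and in Col-0 at 14.8 and 0.372 at 23°C and 3.84 and 0.318 at 27°C. In Col-0, both were highest in the first library at 23°C, as most of the synthesis genes were. For neither was the response shown to differ between genotypes (interaction, edgeR adjusted p = 0.948 for each).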

How the data were processed

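RNA was sequenced as 90 bp paired reads from 8 libraries. The authors removed ribosomal reads with SortMeRNA, aligned to TAIR10 with TopHat2 2.1.0 and bowtie2 2.1.0, and counted fragments with both reads aligned using featureCounts 1.4.5; strand setting and annotation release are not given in the sources used here. The authors deposited raw counts per gene (a table per temperature) with gene length, and normalized values that were not used here.

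Counts were tested with edgeR 4.0.16 (R 4.3.3; TMM, filterByExpr, glmQLFit, glmQLFTest) with the replicate number as a block, as the study's methods account for replicate batch. Replicate differences correlated more between temperatures within a genotype (r 0.656 in Col-0 and 0.613 in *pwr-2*, over 19777 genes) than between genotypes. Between genotypes r was 0.261 to 0.334, with 0.277 for the 2 groups at 27°C. Pair comparisons used their own 4 libraries and the interaction all 8, with Benjamini-Hochberg adjustment over all genes tested and a threshold of 0.05. SE is the absolute log2 fold change over the square root of F. Pair differences and profiles used log2 CPM with a prior count of 2. DESeq2 1.42.0 was an alternative. Scripts were tested on simulated data. Positions come from TAIR10.1, since the tables hold none. Counting error limits genes with few counts.

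The members, the lists and the rule for named genes (the members, *PWR*, list genes called or at either extreme at 27°C, and the 5 nearest profiles) were chosen with earlier results of these data known.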

Additional observations from a re-analysis of the deposited data

Results flagged for a closer look

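For *PBS3*, the difference between genotypes had opposite signs at the 2 temperatures in every replicate pair: *pwr-2* minus Col-0 was 3.16 and 3.15 on the log2 scale at 27°C and -1.60 and -0.88 at 23°C, and the fitted difference between them was 4.96. The same held for *EDS1*, at 0.20 and 0.51 at 27°C and -0.04 and -0.18 at 23°C, with a fitted difference of 0.47. Neither passed the edgeR test of the interaction (adjusted p = 0.948 for each). The 2 genes differ in size of effect, and the 23°C values of *PBS3* rest on 2 to 44 counts. In a fit of all groups without the first Col-0 replicate at 23°C, the 23°C difference of *PBS3* was 0.87, opposite to both pairs. Its direction there thus depends on the model and cannot be given. For *EDS1* the fitted 23°C difference, -0.12, was smaller than its SE of 0.264.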

How the results depend on the processing

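For *pwr-2* against Col-0 at 27°C, the 2 members and 202 genes called became 0 and 0 with upper-quartile normalization, without the replicate block, with all 8 libraries in one fit and at an adjusted p under 0.01, and 4 and 931 with DESeq2; without a filter on low counts 700 genes were called, and 380 where each library had to reach 10 counts. Leaving out each library in turn gave 0 members and 0 genes, but that fit of all groups called none with every library in it, so it says nothing on stability. At 23°C DESeq2 called 51 genes instead of 0, and for warmth in Col-0 37 instead of 0. For warmth in *pwr-2*, the 0 members and 80 genes became 0 and 36 with upper-quartile normalization, 4 and 685 without a filter, 2 and 416 where each library had to reach 10 counts, 3 and 586 with nuclear genes alone, 2 and 645 with DESeq2, and 0 and 0 without the replicate block, at an adjusted p under 0.01, with all 8 libraries in one fit and without any single library. For the interaction, DESeq2 called 25 genes instead of 0, and leaving out each library gave 0 to 1 members and 0 to 223 genes. The cause was not tested.

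Leaving out single libraries, with all groups in one fit, turned the direction of some uncalled fold changes (log2). At 23°C they ranged from -0.36 to 2.00 for *EDS5*, -3.65 to 0.87 for *PBS3*, -1.86 to 0.69 for *CBP60g*, -0.78 to 1.70 for *ALD1* (-0.32 without the second *pwr-2* library) and -1.44 to 0.30 for *SARD4*. For warmth in Col-0 they ranged from -2.08 to 0.25 for *EDS5*, -2.20 to 1.22 for *PBS3* (0.27 without the first 27°C library), -2.35 to 0.23 for *CBP60g*, -1.08 to 1.37 for *ALD1* (-0.46 without the second 27°C library), -1.22 to 0.49 for *SARD4*, -2.65 to 0.84 for *FMO1* and -0.13 to 0.15 for *ICS1* (0.10 without the second 27°C library), whose value of -0.01 became 0.00 or 0.01 under upper-quartile normalization, no filter, nuclear genes alone, one fit of 8 libraries and log2(CPM + 1). For the interaction they ranged from -0.16 to 0.25 for *PAD4* (-0.10 without the second *pwr-2* library at 23°C, -0.02 without the first at 27°C) and -0.09 to 2.38 for *ALD1*. Of the fold changes of members under alternatives, 694 kept direction and call, 29 turned, 22 lost a call, 15 gained one and 13 with no test moved. The fit without the replicate block changed no member's call in the other comparisons.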
